A study of Mus musculus with 6 samples.

Results

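The 10 genes described here are the Sprouty genes Spry1, Spry2 and Spry4, the Spred genes Spred1, Spred2 and Spred3, the ETS transcription factor genes Etv1, Etv4 and Etv5, and Phlda1. They were chosen by symbol from the 43074 gene symbols of a table of raw RNA sequencing counts, and each of the 10 was present and passed the filter on low counts that 17433 genes passed. The set was named with earlier results of the same libraries known, so the calls and adjusted p-values below describe each gene and are no evidence for the choice of the set. The libraries came from C2C12, an established wild-type mouse myoblast line that fuses into myotubes when serum is changed. Day 0 cells were untreated, and their libraries stand for the growing culture kept in medium with fetal bovine serum. The other cells spent 4 days in differentiation medium with horse serum, containing either DMSO, the vehicle, or 1 mM 4-phenylbutyric acid (4-PBA), an aromatic fatty acid used as a chemical chaperone; it also blocks histone deacetylases. There were 2 libraries per group; nothing in the labels ties them to separate cultures, so the spread between replicates may be technical. Day, medium and vehicle changed together between day 0 and day 4 and cannot be told apart. The labels give all 6 libraries the same batch number.

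Growth factor receptors switch on Ras, which starts the Raf, MEK and ERK kinase relay, and ERK then induces a set of genes whose transcripts are often read as its output. Sprouty and Spred proteins belong to that set and act as brakes: Sprouty proteins hold back the relay below the receptor, and Spred proteins bring the Ras-inactivating protein neurofibromin to the membrane. Etv1, Etv4 and Etv5 make up the PEA3 group of ETS factors, which are induced by FGF and ERK signalling and are repressed by Capicua (Cic) when ERK is off, and Phlda1 encodes a protein with a pleckstrin homology-like domain whose transcript follows ERK activity in many cells. In muscle, FGF and ERK signalling keeps myoblasts dividing, and Spry1 is known from satellite cells, where it is needed for the return to quiescence.

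Total counts per library ranged from 47908926 to 74697397, and mitochondrial genes took 3.14% to 3.43% of them. The labelled cell type was checked against marker genes: the myoblast markers Myod1, Myf5, Des and Cdh15 summed to 1333 to 1336 CPM (counts scaled to a common library total) at day 0, 2861 to 2892 with DMSO and 2776 to 2779 with 4-PBA. Desmin (Des), at 889.3 and 890.6 CPM at day 0 and 2041 to 2201 CPM at day 4, made up most of that sum, and Cdh15 was also higher at day 4. Myod1 was at 97.2 to 115.3 CPM throughout, and Myf5 was lower at day 4, at 22.5 to 24.4 CPM against 51.1 and 50.3 CPM. The myotube markers Myog, Mymk, Myh3 and Ckm summed to 40.3 to 43.3 CPM at day 0, 2660 to 2871 with DMSO and 2732 to 2782 with 4-PBA; the part of this shift in the changes from day 0 below was not tested. The adipocyte, osteoblast, leukocyte and endothelial lists, of 3 markers each, had summed levels of 0.0321 to 0.889 CPM, with at most 28 counts of any of their 12 genes in a library and Cfd at 0 throughout. In bulk libraries fewer cells of a type and less RNA per cell cannot be told apart.

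Expression is given as CPM after TMM scaling, and changes as log2 fold changes from a single edgeR quasi-likelihood fit over the whole table, with the standard error (SE), a 95% interval where a change was not called, and p-values adjusted over all 17433 genes by the Benjamini-Hochberg method. A gene is called at an adjusted p under 0.05. The smallest two-sided exact permutation p that a comparison of 2 with 2 libraries allows is 0.333, so the calls rest on the variation that the fit pools over genes and groups.

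Upstream sequence was in hand for 7 of the 10 genes, in 9 windows from the RefSeq promoter table on GRCm38.p6; Spry4, Etv4 and Phlda1 had no entry. The 250 bases before the start site of Spry1 (chr3:37639697-37639946, + strand), of Spry2 (chr14:105896820-105897069, - strand) and of Spred3 (chr7:29168648-29168897, - strand) are shown, Spry1 because it had the largest change of the 10 genes, and Spry2 and Spred3 because theirs were the windows with a match to a Cic octamer. They are written 5′ to 3′ on the gene's strand, with the octamer in capitals, as its reverse complement in Spry2.
Spry1: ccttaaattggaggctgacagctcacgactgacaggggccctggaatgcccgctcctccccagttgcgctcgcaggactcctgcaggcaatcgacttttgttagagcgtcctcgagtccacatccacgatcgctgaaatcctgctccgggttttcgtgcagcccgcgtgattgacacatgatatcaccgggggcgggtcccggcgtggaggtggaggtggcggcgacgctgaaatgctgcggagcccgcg
Spry2: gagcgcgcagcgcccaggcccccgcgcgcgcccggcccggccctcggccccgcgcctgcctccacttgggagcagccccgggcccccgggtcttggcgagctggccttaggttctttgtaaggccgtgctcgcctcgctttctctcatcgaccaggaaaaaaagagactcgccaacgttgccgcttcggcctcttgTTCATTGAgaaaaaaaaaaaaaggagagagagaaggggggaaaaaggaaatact
Spred3: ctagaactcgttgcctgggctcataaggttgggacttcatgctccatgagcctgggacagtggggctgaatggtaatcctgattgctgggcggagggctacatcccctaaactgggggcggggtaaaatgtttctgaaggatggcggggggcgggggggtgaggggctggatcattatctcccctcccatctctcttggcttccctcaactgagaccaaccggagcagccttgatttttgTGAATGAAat
The octamers searched, on both strands, were TGAATGAA, TGAATGGA, TCAATGAA and TCAATGGA. Spred3 held TGAATGAA on its own strand at bases -10 to -3 from the start site, and Spry2 held TCAATGAA on the opposite strand at bases -54 to -47. Any of the 4 octamers was held by 3.19% of all 32851 windows of the same length. The ETS motif CCGGAA (held by 3952 of all 32851 windows), the cyclic AMP element TGACGTCA (1.55% of them), the AP-1 motif TGANTCA (6.75%), the E-box CACCTG (17.2%) and the CArG box of serum response factor (1.47%) matched none of the 9 windows, and the E-box CAGCTG (13.0%), which is its own reverse complement, matched 1 window, of Etv5. The Spry1 and Spry2 windows had the same base composition, with 62.4% G and C and 23 CpG each, against medians of 52.4% and 6 over all windows. Spred3 stood nearer those medians, at 55.6% and 6. A match of letters is a description of the sequence and shows no binding, and the Spry1 window overlaps an exon of Gm42922 on the opposite strand in GENCODE M21. The Spred2 window, 1 window of Etv1 and the Etv5 window with the E-box match overlap M21 exons of their own gene.

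Over 4 days with DMSO, 8 of the 10 genes were called against day 0, 2 higher and 6 lower. In this comparison 66.3% of all tested genes were called, 33.8% higher and 32.6% lower. The libraries of the same 8 genes did not overlap between the groups, which held for 81.9% of all tested genes, 42.0% higher and 39.9% lower. Spry1 rose 8.62-fold and Spry2 rose by 17.9%, while Spry4, the 3 Spred genes, Etv4 and Etv5 fell. The median log2 fold change of the 10 genes was -0.33, against 0.023 over all tested genes. The median and the count follow from which genes were named.

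At day 0 Spry1 measured 2.82 and 3.96 CPM; the DMSO pair measured 30.0 and 29.8 CPM, and the 4-PBA pair 28.1 and 23.5 CPM. Both day 4 groups lay far above day 0, and both 4-PBA libraries lay below both DMSO libraries, the closer of them by little. The rise over day 0 was 3.11 on the log2 scale with DMSO (SE 0.116, adjusted p 1.91e-14) and 2.90 with 4-PBA (SE 0.118, adjusted p 7.16e-14), and even the closest libraries of day 0 and DMSO differed 7.52-fold. The group means of 25.8 ± 3.25 CPM with 4-PBA and 29.9 ± 0.168 CPM with DMSO (SD, n = 2) did not differ by a called amount (log2 fold change -0.21, 95% interval -0.40 to -0.020, unadjusted p 0.0321, adjusted p 0.237). Without 4-PBA replicate 1 this log2 fold change was -0.35 and without 4-PBA replicate 2 it was -0.088. The day 0 libraries held 137 and 278 Spry1 counts. In GENCODE M21, 24.4% of the exon length of Spry1 overlaps Gm42922 on the opposite strand, and whether the counting used strand is not given in the sources used here; Gm42922 itself had 0 to 48 counts per library.

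Spry2, the most abundant of the Sprouty transcripts per length in each library, measured 72.8 and 73.4 CPM at day 0; DMSO libraries gave 87.0 and 85.4 CPM, and 4-PBA libraries 70.1 and 64.5 CPM. The 3 groups did not overlap: the DMSO libraries lay above day 0 and the 4-PBA libraries below it. Against day 0 Spry2 rose by 0.24 on the log2 scale with DMSO (SE 0.0429, adjusted p 9.50e-06). With 4-PBA it fell by 0.12 (SE 0.0435, adjusted p 0.0161). The fall from day 0 rested on 4-PBA replicate 2, without which the log2 fold change was -0.060 and not called (adjusted p 0.352); it was not called either without day 0 replicate 2 (adjusted p 0.0978), and the range over all alternatives was 0.00529 to 0.352. From a mean of 86.2 ± 1.18 CPM with DMSO, Spry2 fell by 21.9% with the drug, to 67.3 ± 3.95 CPM (SD, n = 2). The log2 fold change was -0.36 (SE 0.043, adjusted p 1.15e-06). By its p-value it ranked 18 among the 17433 genes of that comparison.

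Spry4, the least abundant Sprouty transcript per length at day 4, showed the largest difference between 4-PBA and DMSO among the 10 genes. It began at 14.1 and 14.0 CPM on day 0 and ended at 10.7 and 9.22 CPM under DMSO or at 5.86 and 5.88 CPM under 4-PBA. The groups stood in steps with no overlap, and the 4-PBA libraries were nearly equal. With DMSO Spry4 fell by 0.50 on the log2 scale from day 0 (SE 0.0941, adjusted p 1.49e-05), and with 4-PBA it fell by 1.26 (SE 0.100, adjusted p 2.02e-13). Relative to DMSO the drug's log2 fold change was -0.76 (SE 0.102, adjusted p 8.02e-06), and the level fell by 40.8%; the closest libraries of the pair of groups stood at a ratio of 0.637. Of all tested genes, 2.95% had a lower log2 fold change in this comparison. Leaving out DMSO replicate 1 gave -0.65 and leaving out DMSO replicate 2 gave -0.86, both called.

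**Figure D1:**
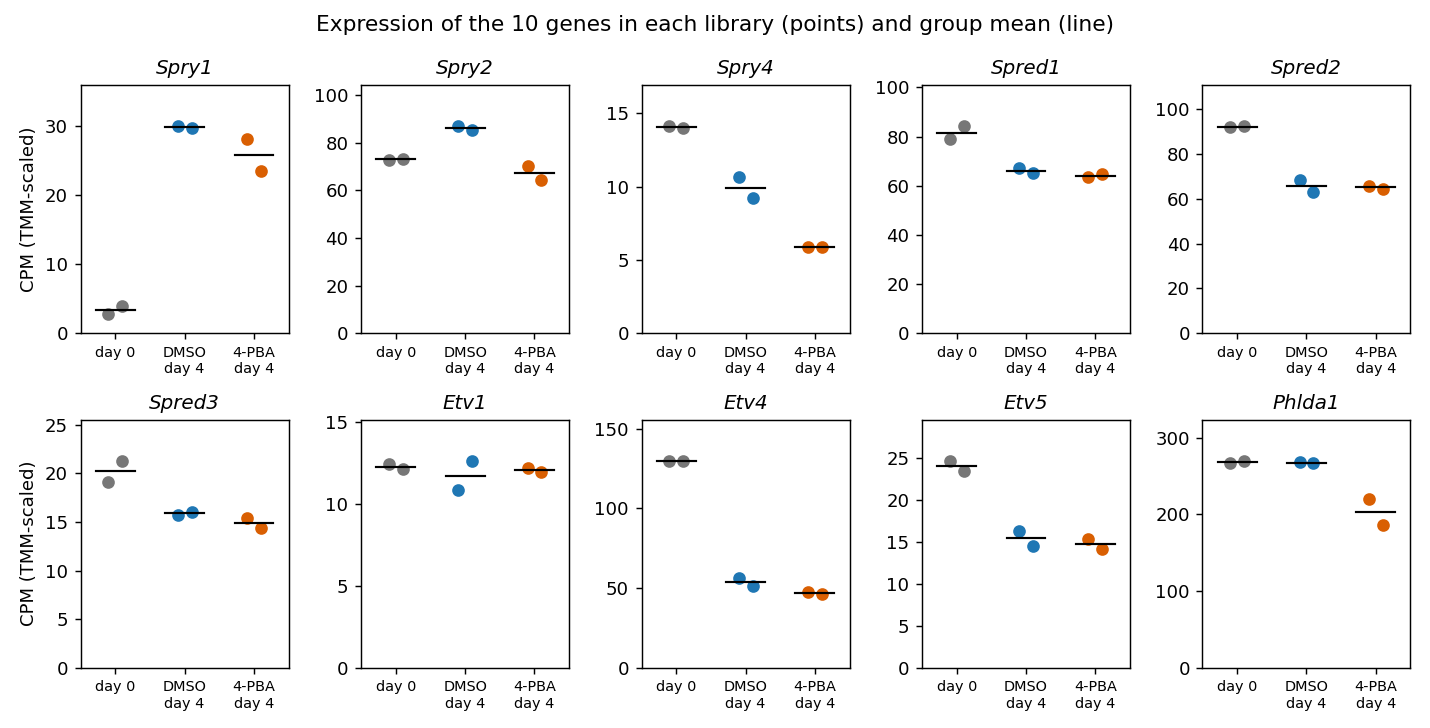
Level of each of the 10 genes in CPM after TMM scaling (y axis, from 0, scaled per gene) in the 2 libraries of each group (points, coloured by group), with the group mean as a line. Spry1 stands near 3 CPM at day 0 and above 23 CPM in the 4 day 4 libraries, Spry4 steps down from 14.1 to 5.87 CPM over the 3 groups, and Phlda1 is lower in the 4-PBA libraries.

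Per kilobase of exon length, which allows levels of different genes to be set side by side, the 3 Sprouty transcripts summed to 38.8 and 39.5 CPM per kb at day 0. The sums were 54.3 and 53.1 in the DMSO libraries and 44.5 and 40.2 in the 4-PBA libraries. The DMSO libraries held the highest sums and the day 0 libraries the lowest, with 4-PBA between them. Spry1 made up 2.97% ± 0.674 of the sum at day 0, 19.2% ± 0.190 with DMSO and 20.9% ± 1.15 with 4-PBA (SD, n = 2). Spry2 made up 89.5%, 76.9% and 76.1% of it, and Spry4 7.56%, 3.89% and 2.92%. Both 4-PBA libraries had a smaller share from Spry4 (2.77% and 3.07%) than both DMSO libraries (4.13% and 3.65%).

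The 3 Spred genes, which encode the relatives of Sprouty that work through neurofibromin, were lower at day 4 than at day 0 in each of the 4 libraries and close between the drug and its vehicle. Spred1 measured 78.9 and 84.2 CPM at day 0, against 67.1 and 65.1 CPM under DMSO and 63.4 and 64.8 CPM under 4-PBA. Spred2 was at 92.2 and 92.4, then 68.3 and 63.2, then 65.9 and 64.2 CPM in the same order of groups. Spred3, the lowest of the family per length as well, was at 19.2 and 21.3, then 15.7 and 16.1, then 15.4 and 14.4 CPM. For each of the 3 genes both day 0 libraries lay above all day 4 libraries.

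With DMSO the log2 fold change from day 0 was -0.30 for Spred1 (SE 0.0433, adjusted p 1.43e-07), -0.49 for Spred2 (SE 0.0429, adjusted p 2.34e-12) and -0.35 for Spred3 (SE 0.076, adjusted p 1.23e-04). With 4-PBA it was -0.35 for Spred1, -0.50 for Spred2 and -0.45 for Spred3, all called. None of the 3 was called by edgeR for the drug against its vehicle, and their unadjusted p-values were 0.320, 0.756 and 0.231. The log2 fold change was -0.044 for Spred1 (95% interval -0.13 to 0.045, adjusted p 0.698), -0.014 for Spred2 (-0.10 to 0.075, adjusted p 0.928) and -0.095 for Spred3 (-0.25 to 0.063, adjusted p 0.611). These intervals bound the differences and do not show equal levels. The edges of the Spred1 and Spred3 groups were close, with the nearest 4-PBA and DMSO libraries at ratios of 0.995 and 0.978, and the Spred2 libraries overlapped. Exons of Spred3 overlap Ggn on the opposite strand over 3.25% of their length.

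Summed per kilobase, the Spred transcripts gave 35.3 ± 0.838 CPM per kb at day 0, 26.5 ± 0.935 with DMSO and 25.9 ± 0.225 with 4-PBA (SD, n = 2). Spred2 held 56.7%, 53.6% and 54.3% of the sum, Spred1 34.1%, 36.7% and 36.4%, and Spred3 9.22%, 9.64% and 9.23%.

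**Figure D2:**
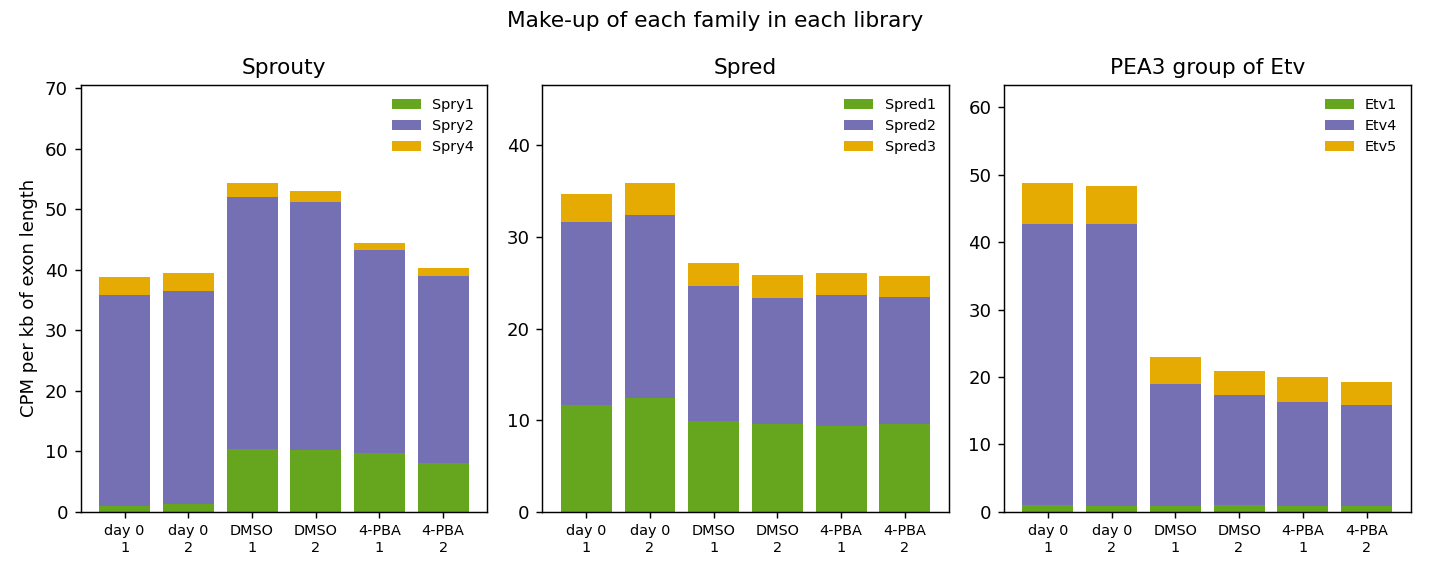
Stacked CPM per kb of exon length (y axis, from 0) of the Sprouty, Spred and PEA3-group Etv genes in each of the 6 libraries (x axis). The Sprouty bars are tallest with DMSO and gain a Spry1 layer at day 4, the Spred bars drop from 35.3 to 26.5 and 25.9 CPM per kb, and the Etv bars drop from 48.5 to 21.9 and 19.6 CPM per kb, mostly in the Etv4 layer.

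The PEA3-group factors did not move alike. The day 0 libraries had 129.7 and 129.6 CPM of Etv4, those with DMSO 56.3 and 51.0 CPM, and those with 4-PBA 47.5 and 46.4 CPM. The day 0 libraries stood far above the rest, and both 4-PBA libraries lay below both DMSO libraries. Etv4 fell by 1.27 on the log2 scale with DMSO (SE 0.044, adjusted p 9.68e-24) and by 1.46 with 4-PBA (SE 0.0447, adjusted p 2.54e-25). From DMSO at 53.7 ± 3.75 CPM to 4-PBA at 47.0 ± 0.758 CPM (SD, n = 2) it fell by 0.19 (SE 0.0456, adjusted p 0.00881). That call depended on single libraries: the log2 fold change was -0.12 without DMSO replicate 1 (adjusted p 0.129), -0.21 without 4-PBA replicate 1 (adjusted p 0.0627) and -0.17 without 4-PBA replicate 2 (adjusted p 0.139), in a range of 3.19e-05 to 0.139 over all alternatives.

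Etv5 went from 24.6 and 23.4 CPM at day 0 to 16.4 and 14.5 CPM under DMSO or 15.3 and 14.2 CPM under 4-PBA. Day 0 lay above day 4, and the DMSO and 4-PBA libraries overlapped. It fell by 0.64 with DMSO (SE 0.0757, adjusted p 3.23e-09) and by 0.70 with 4-PBA (SE 0.0766, adjusted p 4.76e-10) on the log2 scale. It was not called between 4-PBA and DMSO (log2 fold change -0.066, 95% interval -0.22 to 0.093, adjusted p 0.764).

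Etv1, the rarest of the 10 transcripts per length, stayed between 10.8 and 12.6 CPM in all 6 libraries: 12.4 and 12.1 at day 0, then 10.8 and 12.6 under DMSO or 12.2 and 11.9 under 4-PBA. Its libraries overlapped between the groups in each comparison; by edgeR none of its differences was called. The log2 fold change was -0.062 with DMSO against day 0 (95% interval -0.24 to 0.12, adjusted p 0.564), -0.023 with 4-PBA against day 0 (-0.21 to 0.16, adjusted p 0.838) and 0.038 between 4-PBA and DMSO (-0.14 to 0.22, adjusted p 0.899). Within the group, Etv4 held 86.0% ± 0.392 of the sum per kilobase at day 0, 78.8% ± 0.377 with DMSO and 77.1% ± 0.527 with 4-PBA (SD, n = 2). The share of Etv1 went from 1.90% to 4.04% and 4.62%, and that of Etv5 from 12.1% to 17.1% and 18.3%.

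Phlda1 was the most abundant of the 10 transcripts per length in each group. Day 0 libraries had 267.0 and 269.4 CPM, DMSO libraries 268.5 and 266.4 CPM, and 4-PBA libraries 220.2 and 186.0 CPM. The 4 libraries without the drug lay between 266.4 and 269.4 CPM, while both 4-PBA libraries were lower and stood farther apart than those 4. With DMSO it was not called against day 0 (log2 fold change -0.0042, 95% interval -0.23 to 0.22, adjusted p 0.969). With 4-PBA it was lower than at day 0, at -0.40 (SE 0.0837, adjusted p 0.0115), a call lost without day 0 replicate 2 (adjusted p 0.0501), without DMSO replicate 1 (0.0999) or 2 (0.0995), and when only the compared groups' 4 libraries were fitted (0.0952), the range over alternatives being 1.41e-25 to 0.0999.

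The log2 fold change of Phlda1 with 4-PBA against DMSO was -0.40 (SE 0.0835, 95% interval -0.62 to -0.17), with an unadjusted p of 0.00693 and an adjusted p of 0.0939, so it was not called. The DESeq2 Wald test (adjusted p 0.00293), limma-voom (2.21e-05), the replicate block (0.00383) and the fit with no filter beyond 1 count (5.39e-23) did call it. Over the alternatives with 2 libraries per group, adjusted p-values ran from 5.39e-23 to 0.142, the latter from edgeR on only the 4 compared libraries. Without 4-PBA replicate 1 the log2 fold change was -0.52, and without 4-PBA replicate 2 it was -0.28. Each of these fits leaves a single 4-PBA library, so the difference between the 4-PBA libraries no longer enters the spread. In the robust fit the prior degrees of freedom, which set how far a gene borrows the spread of other genes, were 1.44 for Phlda1 and 30.4 for the median gene, and 0.293% of tested genes had a lower value. In GENCODE M21, 33.0% of its exon length overlaps Gm28592 on the opposite strand, which had 78 to 143 counts per library.

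**Figure D3:**
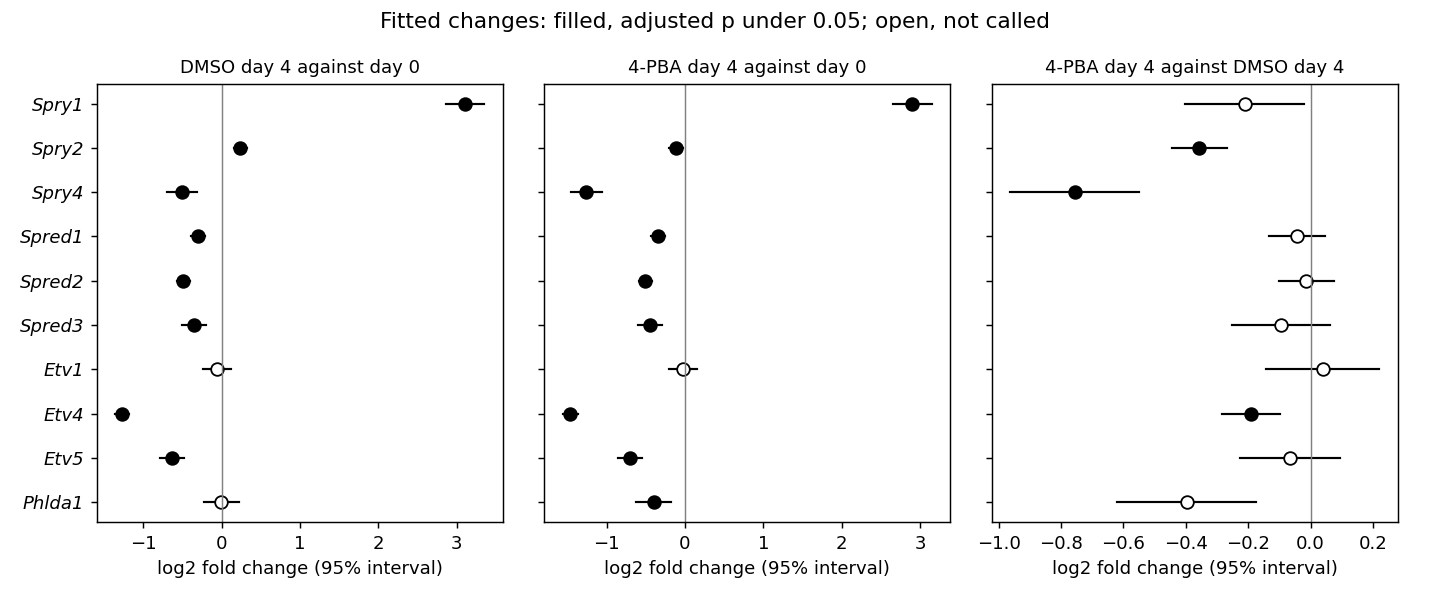
Fitted log2 fold change (points) with its 95% interval (bars) for each gene in the 3 comparisons, with filled points for an adjusted p under 0.05; the x axis of the last panel is narrower. Spry1 lies near 3 in both comparisons with day 0, and Spry4, Spry2 and Etv4 are the filled points between 4-PBA and DMSO.

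Against day 0, 9 of the 10 genes were called with 4-PBA, 1 higher and 8 lower, where 65.6% of all tested genes were called, 33.2% higher and 32.4% lower. The libraries of those 9 genes did not overlap between 4-PBA and day 0, which held for 81.8% of all tested genes, 41.7% higher and 40.1% lower. The comparisons of DMSO and of 4-PBA with day 0 share the day 0 libraries, so their values stand side by side and are not independent. With 4-PBA against DMSO 3 of the 10 genes were called, all lower, where 4.90% of tested genes were called in either direction and 2.78% lower. Both 4-PBA libraries lay below both DMSO libraries for 7 of the 10 genes, a pattern found in 22.5% of all tested genes (45.5% in either direction), and the libraries of the other 3 genes overlapped. The median log2 fold change of the 10 genes was -0.14, against 0.0021 over all tested genes. Since the genes were named with these results known, the counts are a description of the set.

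**Figure D4:**
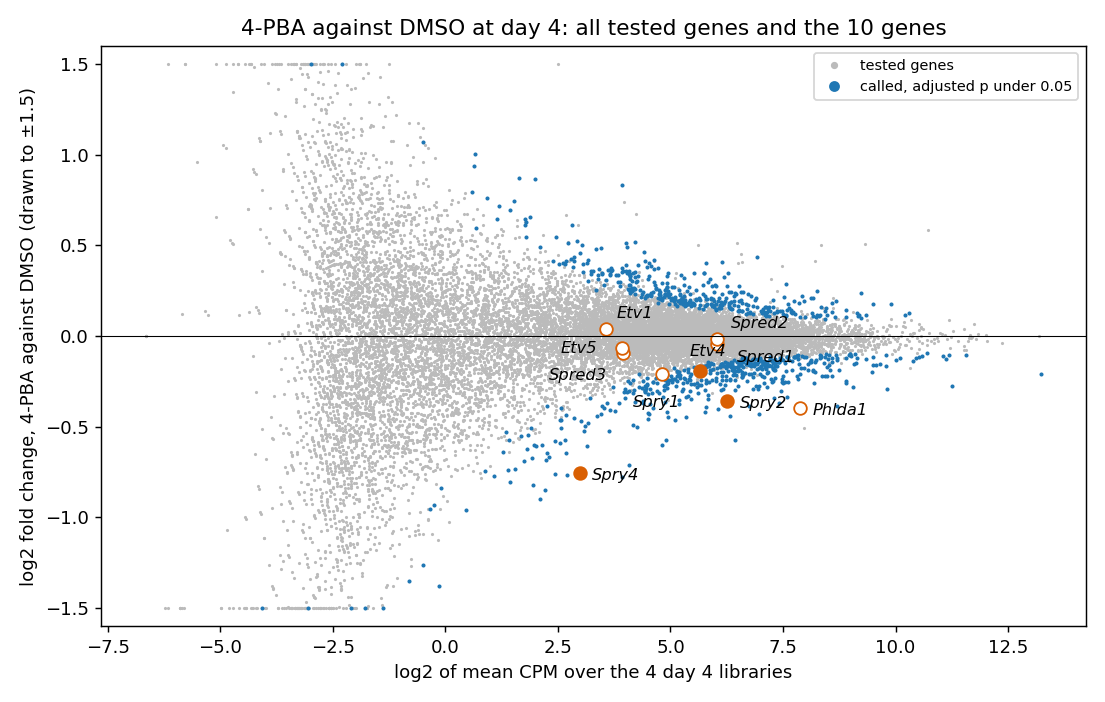
Log2 fold change between 4-PBA and DMSO (y axis, values beyond 1.5 drawn at the edge) against the log2 mean CPM of the 4 day 4 libraries (x axis) for 17433 tested genes (grey) and those called (blue), with the 10 genes as circles, filled where called. Spry4 at -0.76 and Spry2 at -0.36 lie at the lower edge of the cloud for their level, Phlda1 at -0.40 is below it but open, and the Spred genes, Etv1 and Etv5 lie within it.

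Set in order of CPM per kb, Phlda1 led in each group, at 122, 121 and 92.1 with day 0, DMSO and 4-PBA, and Etv1 came last, at 0.922, 0.881 and 0.907. Etv4 was next to Phlda1 at day 0, at 41.8 against 35.0 for Spry2, and the order of those genes was the opposite at day 4, where Spry2 had 41.3 and 32.2 and Etv4 17.3 and 15.1 with DMSO and 4-PBA. Spry1 was next to last at day 0 and the fifth and the sixth at day 4. The libraries of neighbours in the order did not overlap, except those of Spred1 and Spry1 with 4-PBA, at means of 9.45 and 8.89. These values rest on exon lengths of another build, taken over all annotated exons of a gene, and hold only as far as those lengths apply. In mean CPM, without length, Etv1 was not the lowest gene. It was above Spry1 at day 0 (12.26 and 3.389) and above Spry4 with DMSO (11.71 and 9.935) and with 4-PBA (12.05 and 5.87).

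The replicates of a group differed in the same sense for most of the 10 genes at day 4. With DMSO 8 of the 10 were higher in replicate 1; the log2 ratio of replicate 1 to replicate 2 had a median of 0.036 over the 10 and was highest for Spry4, at 0.21. With 4-PBA 8 of the 10 were again higher in replicate 1, with a median of 0.067 and the highest ratio, 0.26, for Spry1. The medians over all tested genes were 0.0047 and 2.58e-04. At day 0 only 4 of the 10 were higher in replicate 1, and Spry1 had the lowest ratio, -0.49. The part of these replicate differences in the results between the groups was examined only through other fits. These leave out each library or take the replicate number as a block. With the block, 8 of the 10 genes were called with DMSO against day 0, 9 with 4-PBA against day 0 and 4 with 4-PBA against DMSO. Over all genes the block called 11403, 11309 and 768 in these comparisons, and the main fit 11564, 11442 and 855.

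Other parts of the pathway were taken from lists of known genes. These lists too were chosen with earlier results of these data known, and the genes named from them had the smallest adjusted p-values of their list. The counts, ranks and p-values below therefore describe these genes and are no further evidence. Of 30 ligands and receptors of the FGF, EGF, PDGF and HGF families, 27 were tested; 12 were called higher and 10 lower with DMSO than at day 0 (33.8% and 32.6% of all tested genes), and none higher and 3 lower with 4-PBA than with DMSO by edgeR (2.13% and 2.78% of all tested genes). Their medians in these comparisons were 0.10 and -0.055. Hgf, the ligand of the receptor Met, had 47.0 and 47.7 CPM at day 0, 17.3 CPM in both DMSO libraries and 13.6 and 14.3 CPM in the 4-PBA libraries, a log2 fold change of -0.31 between the drug and its vehicle (SE 0.0674, adjusted p 0.00374). Ereg, an EGF receptor ligand, fell by 0.43 in the same comparison (SE 0.0938, adjusted p 0.00497). Met fell by 1.49 and Pdgfb, a PDGF chain, rose by 3.70 with DMSO against day 0, and neither was called between the drug and its vehicle.

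Of the 26 genes of the cascade from the adaptors to ERK and its RSK kinases, 9 were called higher and 9 lower with DMSO than at day 0, where 66.3% of all tested genes were called. With 4-PBA against DMSO, where 4.90% of all tested genes were called, 1 of the 26 was, Rps6ka1, an RSK kinase, at 0.805 and 1.10 against 0.444 and 0.458 CPM and thus at a low level (log2 fold change 1.07, SE 0.326, adjusted p 0.0494). The median over the cascade was -0.016 in that comparison. The RSK gene Rps6ka2 and the Ras relative Rras2 fell with DMSO against day 0, by 1.14 and 0.83 on the log2 scale.

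Among 18 other brakes on the pathway, 8 were called higher and 7 lower with DMSO than at day 0, beside 33.8% and 32.6% of all tested genes. With 4-PBA against DMSO edgeR called none higher and 4 lower, beside 2.13% and 2.78% of all tested genes. Dusp4, a nuclear ERK phosphatase, had 241.5 and 242.5 CPM at day 0, 108.2 and 99.1 CPM in the DMSO libraries and 71.1 and 68.0 CPM in the 4-PBA libraries. Its log2 fold change of -0.57 (SE 0.0393, adjusted p 2.48e-11) had the smallest p-value of all 17433 tested genes in that comparison. Nf1, which encodes the neurofibromin that Spred proteins recruit, rose by 0.30 with DMSO against day 0 and fell by 0.17 with 4-PBA against DMSO (SE 0.034, adjusted p 0.00143). The Ras GTPase-activating gene Rasa3 fell by 0.75 with DMSO against day 0. The list median between 4-PBA and DMSO was -0.054.

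Of 16 other ETS factors and Cic, 13 were tested, and 6 were called higher (33.8% of all tested genes) and 4 lower (32.6%) with DMSO than at day 0. The drug against its vehicle gave 2 calls, both lower, as were 2.78% of all tested genes: Elf4 (log2 fold change -0.24, SE 0.043, adjusted p 3.62e-04) and Elk4, a partner of serum response factor (-0.14, SE 0.0366, adjusted p 0.0166), and the median was -9.55e-04. With DMSO against day 0 Elf1 rose by 0.56 and Erf, an ETS repressor that ERK inactivates, fell by 0.52.

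Of 16 other genes read as ERK output, 7 were called higher and 7 lower with DMSO than at day 0; over all tested genes the shares were 33.8% and 32.6%. With 4-PBA against DMSO none was called higher and 5 lower by edgeR, where the shares over all tested genes were 2.13% and 2.78%. The list median was -0.0030. Ccnd1, the cyclin that starts the cell cycle in response to growth factors, fell by 2.13 with DMSO against day 0 and by 0.29 with 4-PBA against DMSO (SE 0.0328, adjusted p 4.38e-07). Myc fell by 0.33 with 4-PBA against DMSO (SE 0.0595, adjusted p 0.00295), and Plaur, the urokinase receptor, fell by 2.41 with DMSO against day 0. Of 12 partners and relatives of the 10 genes, 10 were tested. With DMSO 5 were called higher than at day 0, among them Tesk1, a kinase bound by Sprouty proteins (log2 fold change 0.68), and 4 lower, among them Cav1, which encodes a caveolin (-1.07), where 66.3% of all tested genes were called in either direction. The test of 4-PBA against DMSO called none of them (4.90% of all tested genes); the smallest adjusted p was 0.141, for the pseudokinase gene Trib2 (-0.30), and the median was -0.026.

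**Figure D5:**
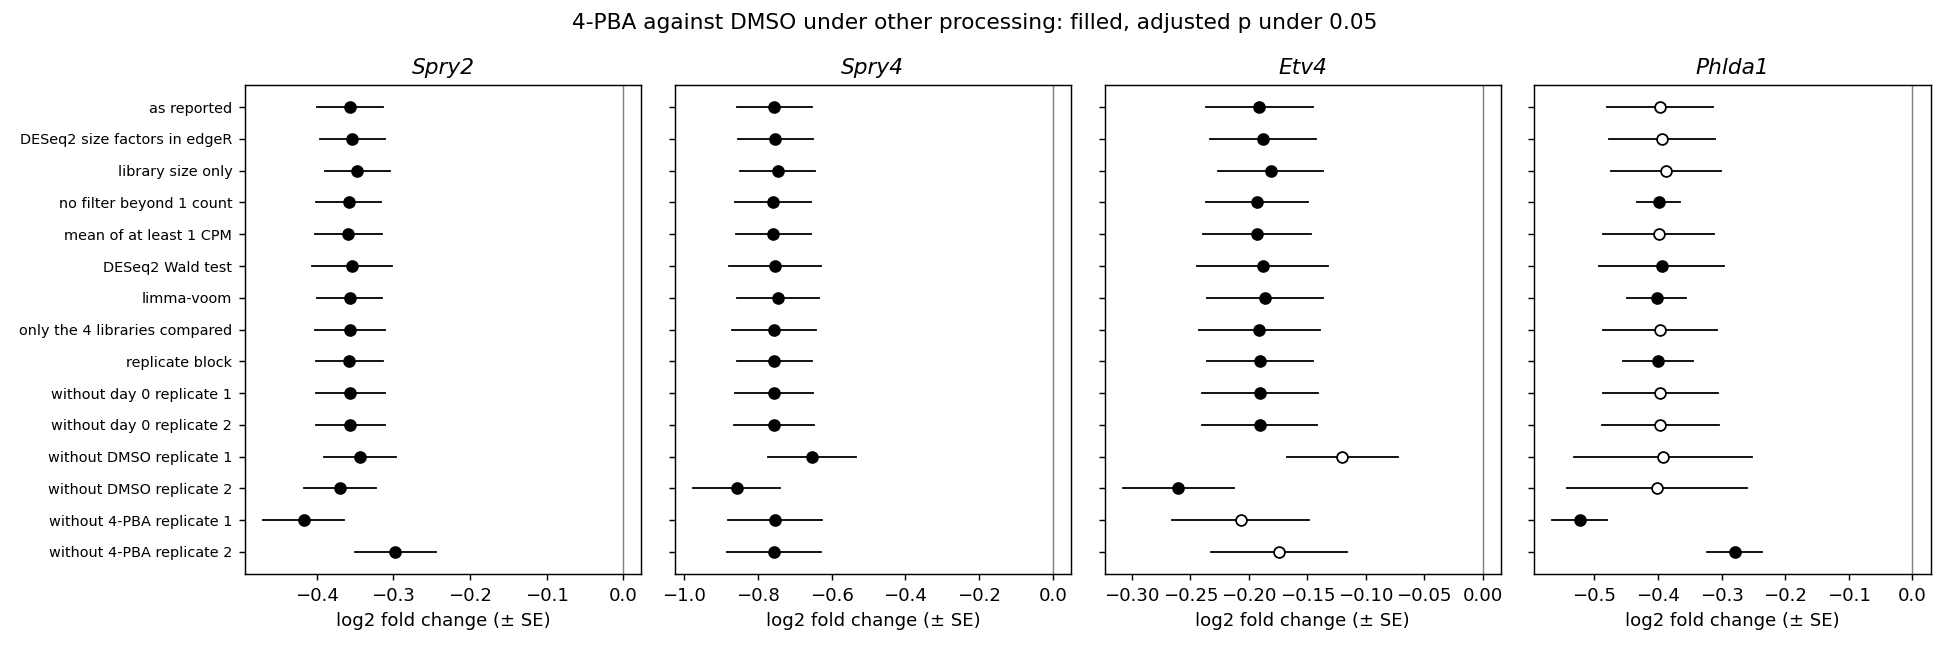
Log2 fold change between 4-PBA and DMSO (x axis, bars ± SE) of Spry2, Spry4, Etv4 and Phlda1 as reported and under each alternative (y axis), with filled points for an adjusted p under 0.05. Spry2 and Spry4 are filled in each row, Etv4 is open in 3 of the fits that leave out a day 4 library, and Phlda1 changes between open and filled at values from -0.52 to -0.28. A fit that leaves out a day 4 library holds a single library of that group.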

How the data were processed

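RNA from 6 C2C12 libraries was sequenced; per the labels' protocols, DNase-treated total RNA was made into directional libraries. The deposited values are raw counts, 1 row per gene symbol and 1 column per library, with no normalisation. The submitters' processing notes name the build GRCm39; the aligner, counting tool, annotation and strand setting are not given in the sources used here. Total counts ranged from 47908926 to 74697397, and edgeR's common biological coefficient of variation came to 3.74%; replicate spread therefore limits precision more than counting error for well-covered genes.

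The counts were fitted in edgeR 4.0.16 under R 4.3.3 (filterByExpr, TMM, robust glmQLFit, 1 mean per group over all 6 libraries, 3 residual degrees of freedom), with Benjamini-Hochberg adjustment over 17433 genes and a threshold of 0.05. The SE is the log2 fold change divided by the square root of F. Exon lengths and overlaps came from GENCODE M21, whose build differs from that of the counts, so lengths are approximate. The script was tested on simulated data. Alternatives were other scaling, filters, thresholds and tests (DESeq2 1.42.0, limma-voom from limma 3.58.1), fits of 4 libraries, a replicate block and leaving out each library. Figures were drawn with matplotlib 3.10.9.

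The 10 genes and the pathway lists were chosen with earlier results of these data known. Named genes were the 10 and, from each list, the 2 smallest adjusted p-values in DMSO against day 0 and in 4-PBA against DMSO.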

Additional observations from a re-analysis of the deposited data

Results flagged for a closer look

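Listed here are the 3 of the 10 genes whose change from day 0 differed between 4-PBA and DMSO. Day 0 cancels in that difference, so the test is the comparison of 4-PBA with DMSO reported above, in which 4.90% of all tested genes were called, and adds no further evidence. The change with 4-PBA minus the change with DMSO was -0.36 on the log2 scale for Spry2, -0.76 for Spry4 and -0.19 for Etv4. The Etv4 call depended on single libraries, as given above, and its value was -0.12 without DMSO replicate 1. Spry2 was above day 0 with DMSO and below it with 4-PBA. The latter log2 fold change was -0.12, and -0.060 without 4-PBA replicate 2, on which that call rested. Spry4 and Etv4 were below day 0 with both.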

How the results depend on the processing

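Of 420 values of single genes under the alternatives, 395 kept their direction and their side of the threshold. Spry2 and Spry4 kept their calls between 4-PBA and DMSO under each alternative run, with log2 fold changes between -0.42 and -0.30 and between -0.86 and -0.65. With no filter beyond 1 count, the calls between 4-PBA and DMSO over all genes went from 855 to 1095. The number of the 10 genes called went from 3 to 5. This added Spry1 (edgeR adjusted p 0.0440, against 0.719 by the DESeq2 Wald test) and Phlda1. Their log2 fold changes hardly moved, at -0.21 for Spry1 and -0.40 for Phlda1. The SE went from 0.0904 to 0.0673 for Spry1 and from 0.0835 to 0.0343 for Phlda1, and the cause was not tested. When each library was left out in turn, the log2 fold change between 4-PBA and DMSO ran from -0.26 to -0.12 for Etv4. It ran from -0.52 to -0.28 for Phlda1 and from -0.35 to -0.088 for Spry1. Each of these fits leaves a group with a single library, so their counts of calls are not compared. At an adjusted p under 0.01, 424 of all tested genes were called between 4-PBA and DMSO, and 3 of the 10 genes.

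Directions turned only for differences that were not called; the cause was not tested. With DMSO against day 0, Phlda1 was 0.013 with a mean of at least 1 CPM and -0.015 to 0.0054 when a library was left out, with 6.34e-04 for DMSO replicate 2 and 5.19e-04 for 4-PBA replicate 1; Etv1 ran from -0.18 to 0.043, the latter for DMSO replicate 1. For the drug against its vehicle, the same fits ran from -0.067 to 0.041 for Spred2 (0.0056 for 4-PBA replicate 2), from -0.065 to 0.16 for Etv1 and from -0.15 to 0.018 for Etv5. No scaling alternative turned a direction among the 10 genes.

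Correlations over all tested genes of same-numbered deviations from the group means were -0.028, -0.0031 and -0.012. With a single deviation per gene in each group, such small values cannot tell whether the replicate numbers pair the samples. With the replicate block, 8 of the 10 genes were called with DMSO against day 0 and 9 with 4-PBA against day 0. Between 4-PBA and DMSO 4 were called, the added one being Phlda1. Over all genes the block called 11403, 11309 and 768 in these comparisons, and the main fit 11564, 11442 and 855.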
